A study of Mus musculus with 12 samples.

Results

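The control tumours of the thymidine kinase (TK) lines were compared with each other, 3 aSMA-TK controls against 3 FAP-TK controls. They are 6 of the 12 mouse pancreas tumours of the series, and they were taken by the genotype in the labels, which gives both groups as PKT mice with no depletion. The comparison asks how tumours of the 2 lines differed where neither cell population had been removed, and it was described across 30142 genes. PKT mice develop pancreatic ductal adenocarcinoma from engineered mutations. In the FAP-TK line the TK transgene is meant for cells positive for fibroblast activation protein (gene Fap), and in the aSMA-TK line for cells positive for alpha smooth muscle actin (gene Acta2). TK turns ganciclovir into a toxic product, so that such cells can be removed. The labels name ganciclovir at 50 ug per kg for all 12 mice, controls included, and do not say whether the controls carried the transgene without the drug or received the drug without the transgene. Strain, age and sex are not in the labels. Each array came from 1 mouse, and no array is shared between the groups. Litter and batch are not in the labels either, so whether the groups shared them is not known.

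Pancreatic ductal adenocarcinoma is a tumour of duct-like epithelial cells within a large stroma of fibroblasts, matrix, vessels and immune cells. Part of the fibroblasts express Fap, and the contractile myofibroblasts express Acta2 together with smooth muscle cells and pericytes. Control tumours of such lines serve as the baseline of their own depletion experiment. A difference between the controls is therefore part of the baseline against which each depletion is read.

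The labelled tissue was borne out by its markers. Ctse, which encodes the protease cathepsin E of foregut-like pancreatic tumour cells, lay between 16.78 and 19.14 on the 6 arrays, on a log2 scale whose highest deposited value was 19.93. The median over 15 ductal and tumour epithelial genes lay between 12.75 and 14.99. Y-linked genes such as Eif2s3y and Uty were expressed in 2 of the 3 tumours of each group, and Xist, the RNA that coats the inactive X chromosome, in the remaining 1 of each (17.06 in FAP-TK control 3 and 15.11 in aSMA-TK control 1). The groups were thus balanced for sex.

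On the quantile-normalized log2 scale, used throughout unless named otherwise, Fap was at 6.56, 7.31 and 6.53 in the FAP-TK controls and at 6.25, 6.38 and 5.76 in the aSMA-TK controls. The aSMA-TK tumours were all lower, but the difference of -0.67 ± 0.37 (SE, n = 3 per group) did not pass limma's test over all genes (adjusted p = 0.267). As deposited the Fap difference was -1.60 and did pass (limma, adjusted p = 0.00510). With median centring the Fap difference was -1.15 and passed narrowly (limma, adjusted p = 0.0491). Acta2 was at 8.86, 14.60 and 12.82 in the FAP-TK controls and at 12.26, 10.85 and 11.12 in the aSMA-TK controls, so the groups overlapped fully. Its difference was -0.68 ± 1.71 (limma, adjusted p = 0.826). In bulk tumour RNA, fewer cells of a type and less RNA per cell cannot be told apart, here or below.

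The arrays themselves differed between the lines. The median deposited value of the 5222 negative-control probe sets was 6.49, 5.62 and 6.39 in the FAP-TK controls and 4.55, 4.46 and 4.73 in the aSMA-TK controls. The mean difference of -1.59 had an exact permutation p of 0.1 (two-sided), the smallest that 3 arrays against 3 can give. The same order held in the depleted tumours, at -1.18 (exact permutation p = 0.1). The 23 background probe sets that the array grades by GC content did not share it, with medians of 2.81 to 3.02 in the FAP-TK and 2.84 to 2.98 in the aSMA-TK controls. Positive-control medians were 9.39 to 10.05 and 8.92 to 9.33. The separation of positive from negative controls was 2.97 and 2.99 in FAP-TK controls 1 and 3 and 4.44 to 4.60 on the other 4 control arrays. Line and negative-control level therefore went together in every control array, and a difference of the lines cannot be told apart from one of the arrays. Pairs of aSMA-TK controls correlated at 0.986 across genes, pairs of FAP-TK controls at 0.962 to 0.974 and pairs across the lines at 0.954 to 0.981.

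**Figure D1:**
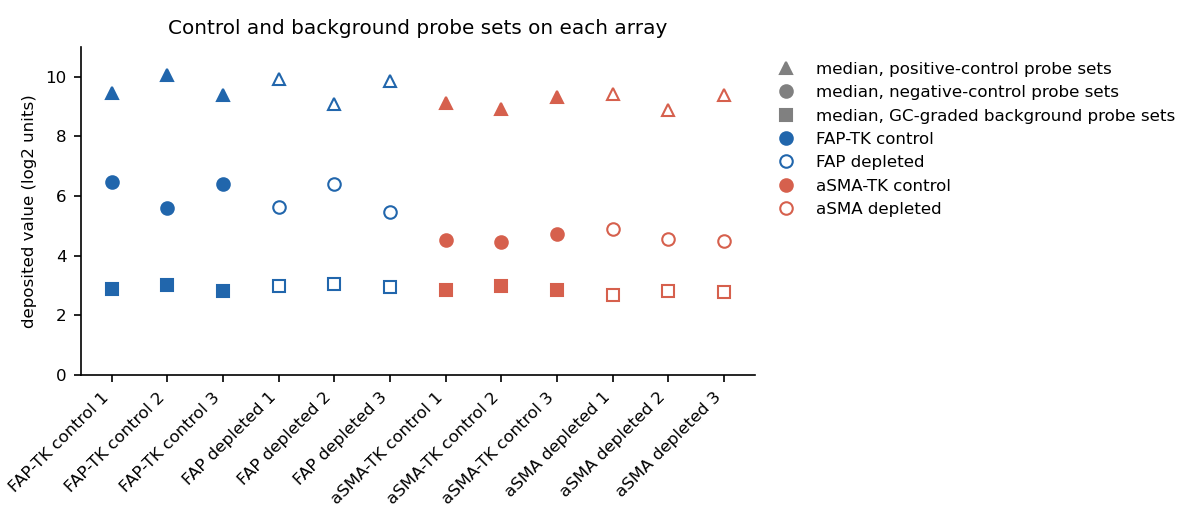
Median deposited log2 value of the positive-control, negative-control and GC-graded background probe sets on each of the 12 arrays, blue for the FAP line and red for the aSMA line, filled for controls and open for depleted tumours. Negative controls run from 5.46 to 6.49 on the FAP arrays and from 4.46 to 4.88 on the aSMA arrays, while the GC-graded background stays between 2.70 and 3.05 on all 12.

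After quantile normalization limma called 2350 of 30142 genes between the control groups (adjusted p under 0.05), or 7.80%. Of these, 1440 genes (4.78%) were higher and 910 (3.02%) lower in the aSMA-TK controls. Unadjusted p was under 0.05 for 8488 genes, and the lowest adjusted p was 0.000899. Values of the groups did not overlap for 10564 genes (35.0%), 6419 with the aSMA-TK controls higher (21.3%) and 4145 with them lower (13.8%). Over all genes the median difference was 0.07, with 58.2% of genes higher. As deposited, the median gene was at -0.39, and limma called 12443 genes of which 424 were higher and 12019 lower. Of those 424 higher calls 141 lay in the brightest of 10 bins of mean level. With median centring limma called 5769 genes, 3342 higher and 2427 lower. Called in the same direction under all 3 scalings were 993 genes, 292 higher and 701 lower. Fitted on the 6 control arrays alone, limma called 212 genes, 134 higher and 78 lower. Of the 50 called genes that the naming rule gives, 7 passed there, Clk1, Ints6l, Sat1, Prkab2, H2-Eb1, Kctd21 and Defa25, and 43 had adjusted p of 0.05002 to 0.138. Of the genes called higher after quantile normalization on all 12 arrays, 282 were lower as deposited.

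Calls were made at all levels of signal. A gene counted as above background on an array where its deposited value exceeded the highest of the 23 GC-graded probe sets there. Of the 2350 called genes, 1284 (54.6%) were above background on none of the 6 arrays, where 51.0% of all genes lay and 8.35% were called. Of the rest, 632 (26.9% of the calls) were above background on arrays of both groups, 321 on arrays of the aSMA-TK controls alone and 113 on those of the FAP-TK controls alone. Of the genes above background in both groups, 5.05% were called. With the genes split by mean level into 10 bins of equal size, 5.61% were called in the dimmest bin, 12.0% in bin 5 and 3.08% in the brightest. In a fit on the 11623 genes whose mean was above that background, limma called 50, with 31 higher and 19 lower. In a fit on the 3423 genes above the 95th percentile of the negative controls it called 0, with a lowest adjusted p of 0.0527 and 496 genes at an unadjusted p under 0.05. That subset held 112 of the 2350 calls of the fit on all genes.

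**Figure D2:**
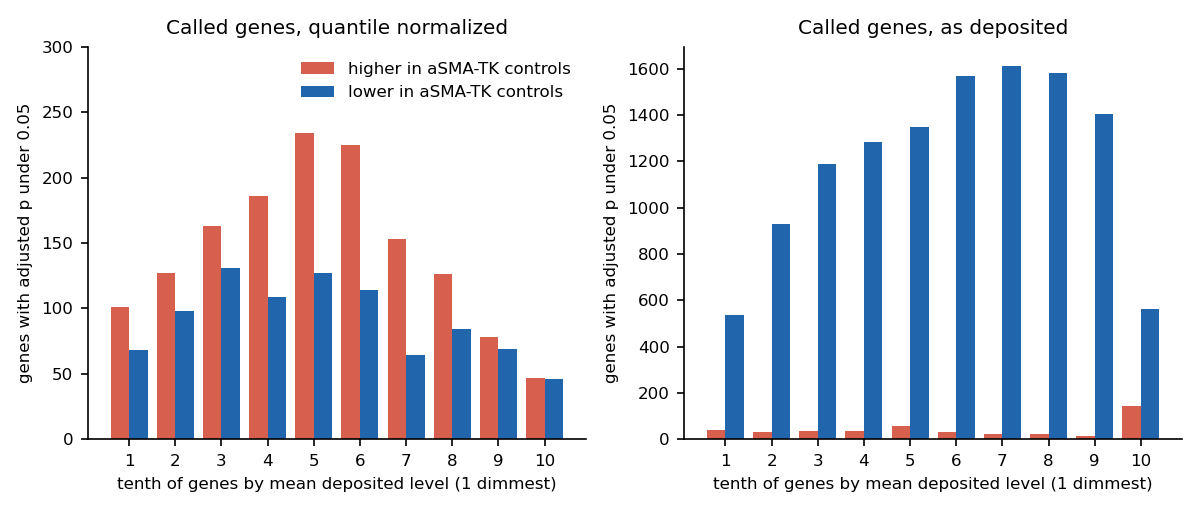
Number of genes called higher (red) or lower (blue) in the aSMA-TK controls, in 10 bins of genes ordered by mean deposited level from dimmest to brightest, after quantile normalization on the left and as deposited on the right. On the left, calls peak in bin 5 at 234 higher and 127 lower, and as deposited 12019 of 12443 calls are lower.

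Single arrays weighed on these counts. Leaving out FAP-TK control 1 left 855 calls, FAP-TK control 3 left 603, aSMA-TK control 1 left 657, aSMA-TK control 2 left 508 and aSMA-TK control 3 left 1278, while 3130 were called without FAP-TK control 2. Of the 2350 genes, 362 passed whichever of the 6 arrays was dropped, 217 higher and 145 lower, and 76 of these were above background in both groups. Without the 3 arrays of low separation, which include FAP-TK controls 1 and 3, limma called 357 genes, 83 higher and 274 lower.

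The named genes are the 12 called genes with the widest gap in each direction, among annotated genes whose groups did not overlap. Adgrg7, an adhesion G protein-coupled receptor gene, had values of 3.60, 3.92 and 3.49 in the FAP-TK and 6.12, 7.06 and 10.06 in the aSMA-TK controls. It was not well above background on any FAP-TK array, and the difference was at least 2.19 log2 units (limma, adjusted p = 0.0191). Tm4sf20, a tetraspan membrane protein gene, was at 4.91, 5.77 and 4.77 against 8.77, 7.62 and 9.24. That is at least 2.99 units (limma, adjusted p = 0.00682). Chst4, a sulfotransferase that modifies mucins and endothelial ligands, was at 3.63, 5.75 and 4.68 against 7.72, 7.89 and 8.35, at least 2.43 units (limma, adjusted p = 0.0274). Each of these genes was low on all 3 FAP-TK arrays and above background on all 3 aSMA-TK arrays. Tff3, the trefoil factor of goblet cells, was likewise above background in the aSMA-TK controls alone, at 7.44, 7.23 and 6.12, at least 1.37 units above. Olfm4, a marker of intestinal crypt and reactive epithelium, differed by 3.10 ± 0.76 (SE, n = 3), with the widest spread in the aSMA-TK group (6.59, 7.58 and 10.10).

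Among brighter genes, Dad1, a subunit of the oligosaccharyltransferase that glycosylates proteins in the endoplasmic reticulum, was at 10.68, 12.15 and 11.04 in the FAP-TK and 13.72, 13.57 and 13.83 in the aSMA-TK controls. The groups were 2.42 ± 0.40 apart (limma, adjusted p = 0.0133). Sh3bgrl3 was higher by 2.40 ± 0.46, Erich5 by 2.44 ± 0.51 and Gadd45b, a stress-induced growth arrest gene, by 2.36 ± 0.49. Rpl28-ps1 rose from 14.62, 15.97 and 14.42 to 18.09, 17.53 and 18.10. It is a pseudogene of the ribosomal protein gene Rpl28, and its probes may read the parent transcript. Tm4sf20, Rpl28-ps1 and Dad1 were called with each control array left out in turn. The call of Adgrg7 ended without FAP-TK control 1 or 3 (adjusted p up to 0.0620 in limma). Those of Tff3 and Erich5 ended without either of these arrays or aSMA-TK control 1 or 2 (up to 0.0973 and 0.0785). Olfm4 was lost without FAP-TK control 1 or 3 or aSMA-TK control 2 (up to 0.113), and Gadd45b without FAP-TK control 1 or 3 or aSMA-TK control 1 (up to 0.0729). Chst4 and Sh3bgrl3 were lost without any 1 array other than FAP-TK control 2 (up to 0.0808 and 0.0622).

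**Figure D3:**
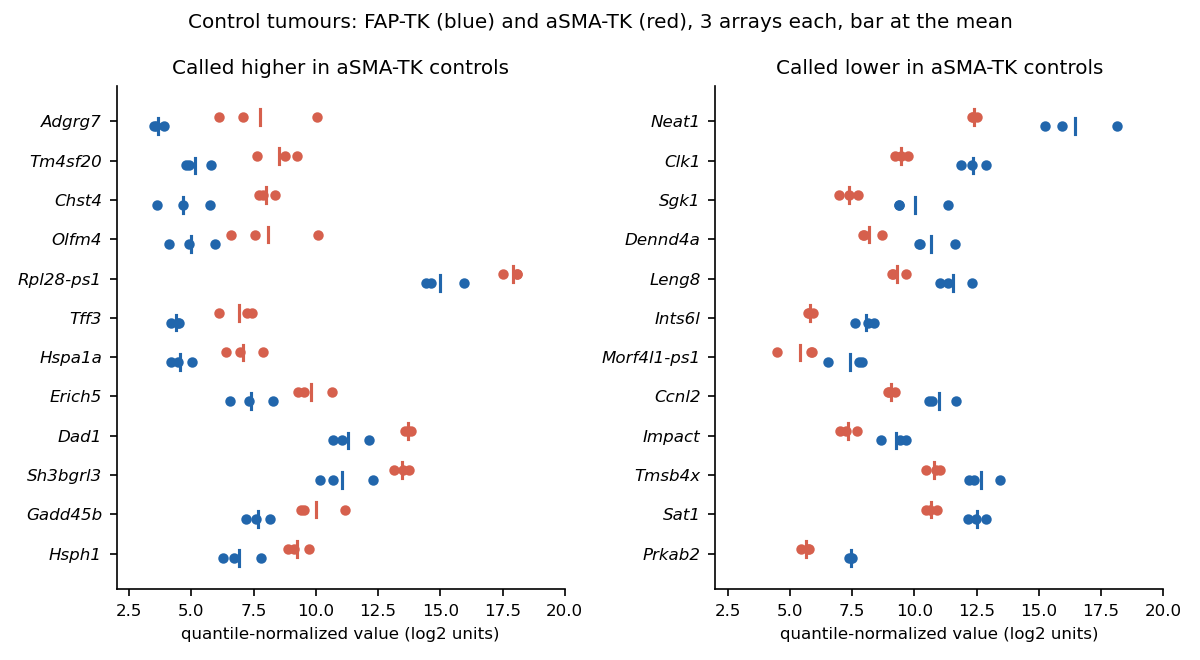
Quantile-normalized log2 value of the 12 genes called furthest above (left) and furthest below (right) in the aSMA-TK controls, 1 point per array, blue for the 3 FAP-TK and red for the 3 aSMA-TK controls, with a bar at each mean. No gene's groups overlap, which the choice of genes required, and Neat1 has the widest gap on the right.

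The widest gap on the lower side was that of Neat1. Neat1, the long noncoding RNA that builds nuclear paraspeckles, was at 18.13, 15.24 and 15.94 in the FAP-TK controls and 12.37, 12.30 and 12.51 in the aSMA-TK controls. All aSMA-TK tumours lay close together and far below, at -4.04 ± 0.70 (limma, adjusted p = 0.0147). Malat1, the abundant nuclear RNA encoded beside Neat1, was at 19.86, 19.86 and 19.78 against 18.80, 18.75 and 19.35. The FAP-TK values lie at the top of the scale, where the highest value in the deposited table was 19.93, so the size of the Malat1 difference is not read. It was -0.87 ± 0.20 here (limma, adjusted p = 0.0358), -0.40 as deposited and 0.05 with median centring. Clk1, a kinase that phosphorylates SR splicing factors, was at 12.87, 11.88 and 12.31 against 9.46, 9.21 and 9.73, which is -2.88 ± 0.69. Ccnl2, an L-type cyclin found in nuclear speckles, differed by -1.95 ± 0.47, and Leng8 by -2.25 ± 0.55.

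These genes led to a list of SR factors with their kinases and cyclins, chosen after its values were seen and described without a test. Of its 20 measured genes 18 were lower, 6 of them called, beside 3.02% of all genes called lower. The median was -1.04 (-1.89 as deposited), beside 0.07 over all genes (-0.39 as deposited). Called besides Clk1 and Ccnl2 were Srsf6 at -1.40 ± 0.18, Srsf3 at -1.56 ± 0.33, Srsf10 at -1.08 ± 0.28 and Tra2b at -0.76 ± 0.20. Srsf6 was at 11.60, 11.75 and 11.63 in the FAP-TK controls and 10.26, 10.14 and 10.40 in the aSMA-TK controls, tight in both. Srsf5, with the widest gap of the family at -2.42 ± 0.66, missed the threshold (limma, adjusted p = 0.0535). Srsf1, Srsf9 and Tra2a differed by -0.03, -0.07 and 0.27. In the depleted tumours the median of the list was -0.40. The negative-control level was lower on the same arrays as these genes. In a fit that carried it as a covariate, Clk1 turned to 0.33 ± 0.92, Leng8 to 0.28 ± 0.76 and Ccnl2 to 0.22 ± 0.63 (limma, adjusted p of 0.894, 0.891 and 0.898). Neat1 was at -1.41 there (0.600). The negative-control levels of the lines did not overlap, so this fit, here and below, cannot tell line and array level apart. Srsf6 was called with each array left out, and Neat1 was lost without aSMA-TK control 2 (adjusted p = 0.0541 in limma). Clk1, Leng8, Ccnl2 and Tra2b were lost without any 1 array other than FAP-TK control 2 (up to 0.117, 0.122, 0.112 and 0.136). Srsf3 was lost without FAP-TK control 1 or 3 or aSMA-TK control 1 or 2 (up to 0.0838), Malat1 without any but aSMA-TK control 3 (up to 0.118) and Srsf10 without any (up to 0.130).

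The other genes far below have varied roles. Prkab2, a regulatory subunit of the energy sensor AMPK, gave the smallest p of the named genes. It was at 7.51, 7.44 and 7.39 in the FAP-TK controls and 5.78, 5.43 and 5.71 in the aSMA-TK controls, a difference of -1.81 ± 0.12 (limma, adjusted p = 0.000899). Sgk1, a kinase induced by glucocorticoids and salt, was at 11.35, 9.37 and 9.38 against 7.73, 7.39 and 6.98, which is -2.67 ± 0.56. Impact, an inhibitor of the translation kinase GCN2, differed by -1.94 ± 0.32, Dennd4a by -2.49 ± 0.53, Ints6l by -2.23 ± 0.41 and Sat1, the enzyme that acetylates polyamines for export, by -1.83 ± 0.45. Morf4l1-ps1, a pseudogene whose probes may read its parent gene, was at -2.00 ± 0.47. Tmsb4x, which encodes the actin-sequestering peptide thymosin beta 4, was at 12.21, 13.45 and 12.40 against 10.47, 10.88 and 11.05. That is -1.89 ± 0.29 (limma, adjusted p = 0.0107). Tpm1, an actin-binding tropomyosin of contractile cells, was at 10.77, 11.21 and 10.72 against 9.08, 9.48 and 9.65, or -1.50 ± 0.22 (limma, adjusted p = 0.00923). Prkab2, Impact, Tmsb4x and Tpm1 were called with each array left out. Sgk1 was lost without any 1 of the aSMA-TK controls (limma, adjusted p up to 0.0790) and Ints6l without FAP-TK control 3 or aSMA-TK control 1 or 2 (up to 0.0614). Dennd4a and Morf4l1-ps1 were lost without any array but FAP-TK control 2 (up to 0.0890 and 0.109), and Sat1 without any (up to 0.116).

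Of 19 measured genes of the type I interferon response, 2 passed, both higher in the aSMA-TK controls, beside 4.78% of all genes called higher. Interferons act through STAT and IRF transcription factors on response elements in promoters. At any p, 19 of 19 were higher after quantile normalization and 11 as deposited, with medians of 0.82 and 0.11, beside 0.07 and -0.39 over all genes. Passing were Ifit1, an RNA-binding antiviral protein gene, and Rtp4, a chaperone of receptor transport, and 7 of the 19 did not overlap with the aSMA-TK controls higher, beside 21.3% of all genes. Ifit1 was at 4.87, 4.66 and 4.35 in the FAP-TK and 5.95, 7.34 and 6.29 in the aSMA-TK controls, at least 0.97 units higher (limma, adjusted p = 0.0123). Rtp4 was at 4.70, 5.65 and 4.43 against 6.03, 6.83 and 6.63, at least 0.94 units (limma, adjusted p = 0.0408). Both were above background on all aSMA-TK and no FAP-TK array. Bst2, which tethers budding virions, was at 2.81 (limma, adjusted p = 0.0530), Oasl2 at 1.77 and Zbp1, a sensor of nucleic acids, at 0.89 without passing. Isg15, Mx1 and Mx2 differed by 0.42, 0.14 and 0.04. Over arrays, the median of the list was 4.70, 5.26 and 4.43 in the FAP-TK and 5.68, 6.83 and 6.29 in the aSMA-TK controls, highest in aSMA-TK control 2.

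Interferon-gamma drives the guanylate-binding proteins and immunity-related GTPases, which attack vacuoles of intracellular pathogens. Of 11 measured genes 10 were higher (6 as deposited) with a median of 1.08 (0.16 as deposited). Igtp and Gbp3 passed, beside 4.78% of all genes called higher. The array medians of the list were 5.91, 6.25 and 6.16 in the FAP-TK and 5.80, 7.81 and 6.85 in the aSMA-TK controls, so that aSMA-TK control 1 lay below every FAP-TK control. Igtp was at 4.33, 5.57 and 4.67 against 5.80, 7.71 and 7.25, at least 1.36 units higher (limma, adjusted p = 0.0354). Gbp3 was at 4.78, 5.20 and 4.59 against 5.47, 6.59 and 6.29, at least 0.57 units (limma, adjusted p = 0.0311). Gbp2 was at 2.40 (limma, adjusted p = 0.0779), and Gbp9 alone was lower at -0.41. Genes of both families are near-identical copies in part, so probes may read more than 1 of them. Ifit1 was called with each array left out. Rtp4 was lost without any array but FAP-TK control 2 (limma, adjusted p up to 0.127), and Igtp and Gbp3 without FAP-TK control 1 or 3 or aSMA-TK control 2 or 3 (up to 0.112 and 0.0982). As deposited, Rtp4 (0.0846) and Gbp3 (0.0941) did not pass. Without aSMA-TK control 2 the median of the GTPase list went from 1.08 to 0.42. With negative-control level as a covariate the interferon median was 0.06 and that of the GTPases 0.66.

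The promoters of Ifit1, Igtp and Gbp3 are shown because these called genes carry the core of the interferon-stimulated response element, searched as GAAANNGAAA on both strands and printed in capitals. They are RefSeq sequences of build GRCm38.p6, 300 bases around the start site, each 5′ to 3′ along its gene. In Gbp3 a pair of matches overlaps, and the promoter of a second start site of Gbp3 has none.
Ifit1 promoter, chr19:34640639-34640938, plus strand: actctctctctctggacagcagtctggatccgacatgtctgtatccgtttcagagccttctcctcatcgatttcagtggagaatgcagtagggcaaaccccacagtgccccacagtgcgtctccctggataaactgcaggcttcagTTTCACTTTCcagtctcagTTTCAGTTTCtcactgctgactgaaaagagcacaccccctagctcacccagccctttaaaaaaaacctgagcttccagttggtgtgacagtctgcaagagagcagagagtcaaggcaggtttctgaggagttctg
Igtp promoter, chr11:58199306-58199605, plus strand: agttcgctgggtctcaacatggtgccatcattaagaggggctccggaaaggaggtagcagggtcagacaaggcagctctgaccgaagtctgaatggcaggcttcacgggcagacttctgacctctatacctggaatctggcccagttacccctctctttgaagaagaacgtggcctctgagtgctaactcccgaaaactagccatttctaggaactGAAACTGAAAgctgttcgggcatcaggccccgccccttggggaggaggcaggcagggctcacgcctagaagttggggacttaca
Gbp3 promoter, chr3:142559794-142560093, plus strand: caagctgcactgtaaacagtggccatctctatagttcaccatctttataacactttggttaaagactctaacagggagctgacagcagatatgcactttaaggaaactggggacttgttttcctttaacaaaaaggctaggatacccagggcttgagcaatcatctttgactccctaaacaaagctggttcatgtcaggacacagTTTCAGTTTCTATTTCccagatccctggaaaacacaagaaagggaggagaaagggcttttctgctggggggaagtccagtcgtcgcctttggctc
The motif was found in 1131 of 32851 promoters in the table (3.44%). It was present in 8 of the 13 interferon response genes and 6 of the 6 GTPase genes that had a promoter there. Rtp4 had no entry. A match describes the letters of the window and no binding.

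Of 9 measured heat shock genes, whose protein products refold damaged proteins, 2 passed, both higher in the aSMA-TK controls. Among all genes 4.78% were called higher. At any p, 9 of 9 were higher after quantile normalization and 6 as deposited. The medians were 0.94 and 0.21, beside 0.07 and -0.39 over all genes. Hspa1a, the inducible HSP70, was at 4.46, 5.01 and 4.19 in the FAP-TK and 6.97, 7.89 and 6.38 in the aSMA-TK controls, at least 1.52 units higher (limma, adjusted p = 0.0291). Its near-identical neighbour Hspa1b had no probe set of its own among the genes tested, so the 2 copies cannot be separated. Hsph1, an HSP110 that assists HSP70, was at 6.28, 7.81 and 6.70 against 9.13, 9.74 and 8.87, a difference of 2.32 ± 0.46 (limma, adjusted p = 0.0220). The groups did not overlap for either gene. Bag3, Hsp90aa1 and Dnajb1 were at 1.11, 1.07 and 0.94 without passing, and the constitutive Hspa8 at 0.02. The 2 calls ended without FAP-TK control 1 or 3 or aSMA-TK control 1 or 2 (limma, adjusted p up to 0.0955 for Hspa1a and 0.0801 for Hsph1), and with the negative-control covariate Hsph1 stood at 0.13. The promoter of Hspa1a is shown with the inverted repeat core of the heat shock element, GAANNTTC, which reads the same on both strands, in capitals.
Hspa1a promoter, chr17:34972107-34972406, minus strand: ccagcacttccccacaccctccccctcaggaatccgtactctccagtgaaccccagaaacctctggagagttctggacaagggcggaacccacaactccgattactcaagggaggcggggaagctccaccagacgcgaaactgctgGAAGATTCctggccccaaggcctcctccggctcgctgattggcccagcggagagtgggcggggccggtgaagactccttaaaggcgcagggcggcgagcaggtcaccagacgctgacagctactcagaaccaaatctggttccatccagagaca
This short motif was present in 2582 of the 32851 promoters (7.86%) and in 6 of the 7 heat shock genes with an entry.

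Of 19 measured proliferation genes 2 passed, the replicative helicase genes Mcm6 and Mcm2, beside 4.78% of all genes called higher. At any p, 19 of 19 were higher in the aSMA-TK controls after quantile normalization with a median of 0.90, and 10 of 19 as deposited with a median of 0.00. The medians over all genes were 0.07 and -0.39. Mcm6 was at 6.44, 7.54 and 7.03 in the FAP-TK and 8.72, 9.16 and 8.70 in the aSMA-TK controls, a gap of 1.86 ± 0.29 (limma, adjusted p = 0.0116). Mcm2 differed by 1.23 ± 0.28 and Mki67, the usual proliferation marker, by 0.90 (limma, adjusted p = 0.335). Groups did not overlap, with the aSMA-TK controls higher, for 15 of the 19 genes, beside 21.3% of all genes. Mcm2 did not pass as deposited (limma, adjusted p = 0.215). Mcm6 was called with each array left out, and Mcm2 was lost without any but FAP-TK control 2 (limma, adjusted p up to 0.103). With the negative-control covariate the median of the list was -0.46, with Mcm2 at -0.21.

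Unfolded protein response genes had 8 of 12 members higher with a median of 0.52, turning to 5 of 12 and -0.09 as deposited. The protein disulfide isomerase gene Pdia6 rose by 1.93 ± 0.50 (limma, adjusted p = 0.0471), and Ddit3, the pro-apoptotic factor CHOP, was at -0.50. Hypoxia and glycolysis genes were split, 6 of 14 higher, with a median of -0.01. Among them Car9, the carbonic anhydrase induced by hypoxia, passed at 1.97 ± 0.49 (8.48, 10.34 and 9.08 against 11.24, 10.84 and 11.73), while Vegfa was at -0.82 and Pgk1 at -0.49. Of 16 p53 targets 8 were higher with a median of 0.03, and Bbc3, which encodes PUMA, passed at 0.40 ± 0.09 on arrays where it was not well above background. Oxidative phosphorylation genes had 13 of 16 higher at a median of 0.31, turning to 4 of 16 and -0.48 as deposited, and 0 calls by limma, with 4 at an unadjusted p under 0.05. Of the 8 cytosolic ribosomal protein genes measured, Rplp0 was called higher at 1.47 ± 0.39 and Rps18 lower at -0.91 ± 0.18. Rplp0-ps1, whose probes may read Rplp0, was higher by 2.12 ± 0.45. Immediate early genes, which respond within minutes to stimulation, had a median of 0.08, 0 calls by limma and 0 at an unadjusted p under 0.05. As deposited, Bbc3 was at -0.22, and Car9 and Rplp0 did not pass (limma, adjusted p = 0.0687 and 0.0740). Pdia6, Car9, Bbc3 and Rplp0 were lost without any 1 array but FAP-TK control 2 (limma, adjusted p up to 0.124, 0.113, 0.104 and 0.128). Rps18 was lost without FAP-TK control 3 or any 1 aSMA-TK control (up to 0.0782), and Rplp0-ps1 without FAP-TK control 3 or aSMA-TK control 1 or 2 (up to 0.0846).

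Gene by gene, epithelial genes leaned toward the aSMA-TK controls, but the array medians of the lists overlapped. Of 15 ductal and tumour epithelial genes 14 were higher, 13 as deposited, with medians of 0.95 and 0.73. For 5 of the 15 the groups did not overlap, with the aSMA-TK controls higher, beside 21.3% of all genes. The array medians of this list were 12.75, 14.14 and 13.43 in the FAP-TK and 13.08, 13.64 and 14.99 in the aSMA-TK controls. In the depleted tumours 8 of the 15 were higher, with a median of 0.02. Krt7, a keratin of ductal epithelium, was at 10.67, 11.39 and 10.62 in the FAP-TK and 12.30, 12.57 and 12.55 in the aSMA-TK controls, or 1.58 ± 0.28 higher (limma, adjusted p = 0.0159). Cldn7, a tight junction claudin, was higher by 1.01 ± 0.24 (limma, adjusted p = 0.0363), but 0.09 as deposited. The other 13 did not pass, among them Krt19 at 1.13, Sox9 at 1.45 and Epcam at 0.32. Among all genes 4.78% were called higher. Gastric and mucosal genes had 11 of 14 higher and a median of 0.81, with Tff3 called and Muc5ac at 2.46 and Muc6 at -0.93 not. Their array medians were 16.49, 17.70 and 15.53 in the FAP-TK and 17.28, 16.79 and 17.73 in the aSMA-TK controls. Of the intestinal markers Vil1, the microvillus protein villin, was at 2.39 ± 0.68 (limma, adjusted p = 0.0595), and the 7 had a median of 0.22. The call of Krt7 ended without FAP-TK control 3 or aSMA-TK control 2 (limma, adjusted p up to 0.0585) and that of Cldn7 without any array but FAP-TK control 2 (up to 0.119). With the 3 arrays of low separation left out, the median was 0.28 for ductal and -0.15 for gastric genes.

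Acinar genes, which encode digestive enzymes and mark the normal pancreas left in or beside a tumour, had the largest list median at 2.15 (1.29 as deposited), with 19 of 21 higher. Limma called 0 of them, and 2 had an unadjusted p under 0.05. The array medians of the list were 4.94, 5.81 and 6.60 in the FAP-TK and 8.94, 7.65 and 9.74 in the aSMA-TK controls, and 11 of 21 genes did not overlap with the aSMA-TK controls higher, beside 21.3% of all genes. Cpa1, a carboxypeptidase, was at 7.40, 7.22 and 9.71 against 11.66, 11.07 and 15.13, yet its difference of 4.51 ± 2.36 had an adjusted p of 0.241 in limma. Prss2, a trypsinogen, was at 6.04, 7.21 and 10.69 against 11.63, 11.82 and 13.87. The transcription factors that define the acinar state were at 0.29 for Ptf1a, -0.21 for Bhlha15 and -0.11 for Rbpjl, all near background. Islet genes had 14 of 15 higher with a median of 0.66. Pcsk1, a prohormone convertase, passed at 0.67 ± 0.09 but was not well above background on any array, and Ins2 was at 1.91 (limma, adjusted p = 0.0594). The part of these genes' tissue in the other differences was not tested.

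Stromal lists held 1 called gene. Of 12 pan-fibroblast genes 4 were higher and 8 lower, with a median of -0.06, 0 calls by limma and 0 at an unadjusted p under 0.05. FAP-TK control 1 stood low, at a list median of 7.58 against 10.54 and 10.35 in the other FAP-TK controls and 8.87 to 9.34 in the aSMA-TK controls. Col1a2 was at 12.28, 12.48 and 12.60 in the FAP-TK and 12.48, 11.91 and 10.95 in the aSMA-TK controls, and Vim at 11.21, 13.90 and 12.80 against 12.47, 11.90 and 11.56. Each overlapped. Of 14 myofibroblastic and smooth muscle genes 10 were lower with a median of -0.27, and Tpm1 was the only call. FAP-TK control 1 was also the lowest for this list, at a median of 5.83 against 8.43 and 6.89 in the other FAP-TK controls. Inflammatory fibroblast genes had 10 of 15 lower (median -0.10), interstitial matrix genes 12 of 23 higher (median 0.02) and pericyte genes 5 of 7 higher (median 0.36). Limma called 0 of each, with 0, 1 and 2 at an unadjusted p under 0.05. Endothelial genes had 11 of 12 higher with a median of 0.65, and basement membrane genes 13 of 15 with 0.78. Both lists lay below 0 as deposited, at -0.22 and -0.17, and had 0 calls by limma with 1 and 2 genes at an unadjusted p under 0.05. As deposited, fibroblast, myofibroblast and matrix medians were -0.92, -1.15 and -0.78, lower than the -0.39 of all genes. The pericyte median turned to -0.37 as deposited, with 1 of 7 genes higher.

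Signals between tumour cells and stroma gave single calls. Gli1, the transcription factor and target of hedgehog signalling, was at 5.82, 6.51 and 5.83 in the FAP-TK and 5.19, 5.41 and 5.18 in the aSMA-TK controls, a gap of -0.80 ± 0.18 (limma, adjusted p = 0.0316). The receptor gene Ptch1, another target, was at -0.66 without passing, and the ligand gene Shh at 0.08. The 8 hedgehog genes had a median of -0.03. In the IL-6, JAK and STAT3 list Clcf1, a cytokine of the IL-6 family, passed at -0.75 ± 0.15 (8.26, 8.11 and 8.09 against 7.30, 7.39 and 7.51). The median of the 16 genes was -0.25, with Lif at 0.52, Il6ra at -1.09 and Stat3 at -0.55. TGF-beta signalling genes had 8 of 15 higher, 0 calls by limma and 3 at an unadjusted p under 0.05, with Smad3 at 0.81 and Smad2 at -0.37. Gli1 was lost without FAP-TK control 3 or any 1 aSMA-TK control (limma, adjusted p up to 0.0922), and Clcf1 without FAP-TK control 1 or 3 or aSMA-TK control 1 or 2 (up to 0.0732).

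Genes of antigen presentation differed most within MHC class II, the molecules that show peptides to CD4 T cells. Of 11 measured genes 10 were higher, 7 as deposited, with medians of 0.60 and 0.06. Only 1 of the 11 was above background in both groups, and 5 were above it on any of the 6 arrays. H2-Eb1, the E beta chain, was at 4.00, 4.01 and 4.12 in the FAP-TK and 6.02, 6.42 and 6.44 in the aSMA-TK controls, at least 0.74 units higher (limma, adjusted p = 0.0445). The call ended without any 1 of the 6 arrays (limma, adjusted p up to 0.125), as deposited (0.0605) and with median centring (0.0513). H2-Ea, the E alpha chain, was at 3.67, 3.80 and 3.64 in the FAP-TK controls and at 3.96, 7.96 and 8.59 in aSMA-TK controls 1, 2 and 3. It was thus high in 2 of the 3, while the 6 depleted tumours had 3.45 to 3.98. H2-Ea is known to be silent in mice of some H2 haplotypes, C57BL/6 among them, which the labels here do not give. Of 10 genes known to vary among inbred strains, 9 were higher at a median of 0.31, turning to 3 higher and -0.21 as deposited. Limma called 0 of these 10, with 3 at an unadjusted p under 0.05. H2-Ab1 and H2-Aa were at 1.77 and 1.01 without passing. The 15 MHC class I and processing genes had 14 higher with a median of 0.33, turning to 3 higher and -0.27 as deposited, with 0 calls by limma and 3 at an unadjusted p under 0.05.

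Leukocyte genes were mostly dim. Only 1 of 14 T cell genes was above background in both groups, and 0 of 9 B cell genes, so these lists measure little here. T cell genes had a median of 0.08, 0 calls by limma and 1 at an unadjusted p under 0.05. Calls on genes that were not well above background on any array were Cd79a of B cells at 0.84 ± 0.21, Xcr1 of dendritic cells at 0.64 ± 0.10 and Camp of neutrophils at 0.62 ± 0.16. None passed as deposited (limma, adjusted p of 0.238, 0.0819 and 0.994), where Camp was at 0.00. The medians were 0.37 for B cell and plasma cell, 0.37 for dendritic cell and 0.55 for neutrophil genes, and 0.00, -0.12 and -0.13 as deposited. The 13 macrophage genes, all above background in both groups, had 8 higher, a median of 0.13, 0 calls by limma and 0 at an unadjusted p under 0.05, with Cd163 at 7.42, 9.54 and 12.51 against 8.02, 7.44 and 6.82. Among tissues that could border the tumour, adipocyte genes had a median of 0.06, mesothelial -0.13, Schwann cell -0.06, skeletal muscle 0.11 and liver 0.29. Limma called 0 of each, with 1, 2, 0, 4 and 0 at an unadjusted p under 0.05. Reg family and acute-phase genes had 9 of 12 higher, a median of 0.63, 0 calls by limma and 1 at an unadjusted p under 0.05. Xcr1 was called with each array left out, Camp and Cd79a were lost without any (limma, adjusted p up to 0.133 and 0.127).

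**Figure D4:**
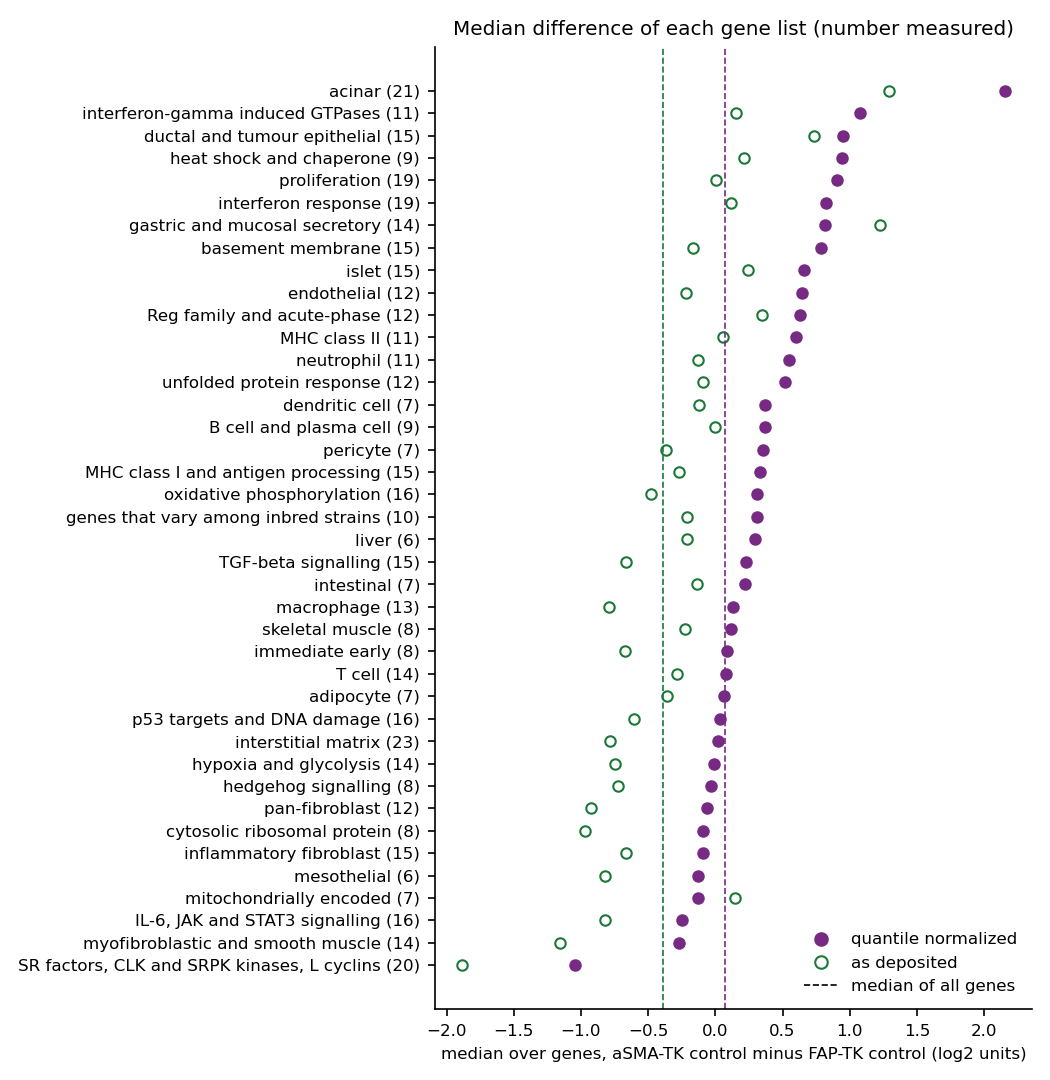
Median over the genes of each list of the difference aSMA-TK control minus FAP-TK control in log2 units, filled after quantile normalization and open as deposited, with the number of measured genes and dashed lines at the medians of all genes (0.07 and -0.39). Acinar genes lie furthest to the right at 2.15 and the list of SR factors and their kinases, chosen after its values were seen, furthest to the left at -1.04.

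The depleted tumours of the same lines share no array with the controls. Their contrast holds the line together with the cell population that was removed, and these cannot be told apart there. It is called a line difference below for short. Pan-fibroblast genes had 4 of 12 higher with a median of -0.06 in the controls, and 12 of 12 with a median of 1.44 in the depleted tumours. Between the depleted groups limma called 1562 of 30142 genes (5.18%), 826 higher and 736 lower in the tumours labelled aSMA depleted. Values did not overlap for 9927 genes (32.9%). The contrasts shared 812 called genes, 34.6% of the control calls and 52.0% of the depleted calls, and 811 of these had the same sign. Both contrasts came from the same fit, in which a gene has the same standard error in each. Calls in both are therefore not independent, although no array is shared. Of the 2350 control calls 2276 (96.9%) had the same sign in the depleted tumours, beside 73.5% of all genes and 70.9% of genes called in neither. Across genes the line differences correlated at r = 0.48, given as a description, since the lines differed in negative-control level in both contrasts. Neat1 was again lower, at 15.42, 16.55 and 15.46 in the FAP depleted and 11.83, 12.79 and 10.94 in the aSMA depleted tumours, or -3.96 ± 0.70 (limma, adjusted p = 0.0186). Dad1 was higher by 2.84 ± 0.40, Rpl28-ps1 by 3.47 and Erich5 by 3.11, and Tmsb4x was lower at -1.87 ± 0.29. H2-Eb1 was at 3.87, 3.90 and 4.29 in the FAP depleted and 8.55, 6.06 and 5.89 in the aSMA depleted tumours. Its difference of 2.81 there is not a bound, and compares with 2.25 in the controls and not with the bound of 0.74.

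Further named genes called in both contrasts included Kctd21, an adaptor of a ubiquitin ligase, Pla2g2d, a secreted phospholipase, the zinc finger gene Zfp640 and the defensin Defa25. Kctd21 was at 6.07, 6.61 and 6.05 in the FAP-TK and 8.27, 8.58 and 8.30 in the aSMA-TK controls, 2.14 ± 0.18 apart (limma, adjusted p = 0.00184), and at 1.11 in the depleted tumours. Pla2g2d differed by 2.02 and 2.07 and Zfp640 by 2.01 and 1.61 in controls and depleted tumours. Defa25, one of many near-identical defensins, was above background on 1 of the 6 control arrays. Sh3bgrl3 (2.73), Rplp0-ps1 (1.82), ND2 (1.62), Tpm1 (-1.76), Prkab2 (-1.07), Srsf6 (-0.85) and Clcf1 (-0.95) were likewise called in the depleted tumours, as were Pcsk1 (0.54), Cd79a (0.97) and Xcr1 (0.57), which were near background in the controls. Among genes called in the controls whose depleted contrast did not pass, Krt7 was at 0.24 there and Cldn7 at -0.19, Clk1 at -1.05, Dennd4a at 0.84, Gli1 at 0.08, Hsph1 at 0.66, Car9 at 0.85 and Ifit1 at 1.14. The Ifit1 value is not a bound and compares with 1.90 in the controls. The difference between the line differences was called for 0 genes (limma, smallest adjusted p 0.829), with 1796 at an unadjusted p under 0.05. A gene called in the controls alone is thus not shown to differ between the contrasts. Kctd21 and Defa25 were called with each control array left out, Pla2g2d was lost without FAP-TK control 3 (limma, adjusted p = 0.0525) and Zfp640 without FAP-TK control 1 or aSMA-TK control 2 (up to 0.0558) and as deposited (0.0694). Without aSMA-TK control 1, limma called 1 gene for the difference between line differences, H2-Ea at 4.31 (adjusted p = 0.00197). That array was the only aSMA-TK control with low H2-Ea, at 3.96 against 7.96 and 8.59. With all arrays the value was 2.87 (limma, adjusted p = 0.829), so the call rests on leaving that array out.

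**Figure D5:**
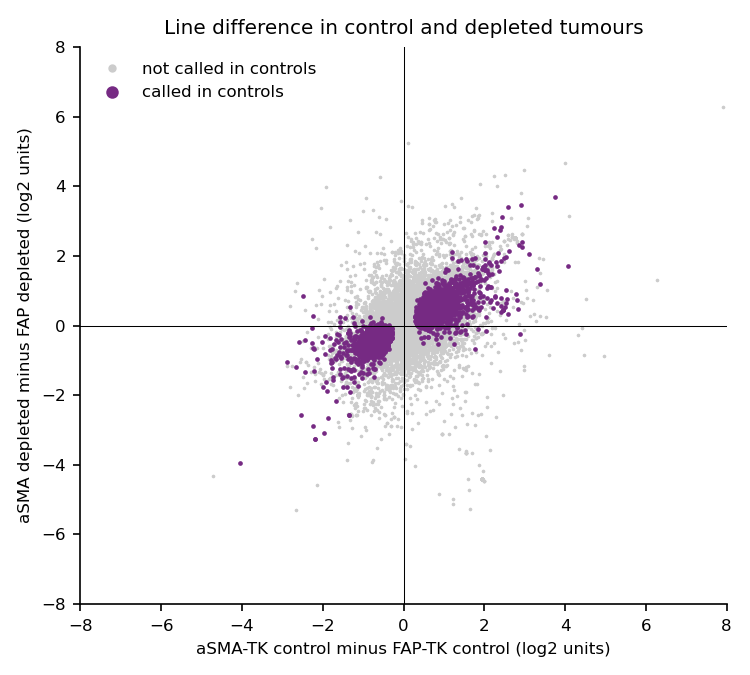
Line difference of each of 30142 genes in control tumours (x axis, aSMA-TK control minus FAP-TK control) against that in depleted tumours (y axis, aSMA depleted minus FAP depleted), both in log2 units, with the 2350 genes called in the controls in purple. Of the purple genes 2276 lie in the quadrants of equal sign. On the y axis, line and removed cell population go together.

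The called genes were spread over the genome. The share called ran from 4.00% on the Y chromosome to 9.52% on chromosome 14, leaving out the 7 mitochondrial genes, of which ND2 was called higher by 1.36 ± 0.28. The call of ND2 was lost without any 1 array but FAP-TK control 2 (limma, adjusted p up to 0.0894). Neighbouring runs of 4 or more genes called in 1 direction were 7 predicted genes on chromosome 5 and Vmn1r114 to Vmn1r118, 5 vomeronasal receptor genes on chromosome 7, and such neighbours can share probe sequence. By biotype of the RefSeq table, 6.96% of 19046 protein-coding genes, 11.7% of 3169 long noncoding RNA genes and 8.07% of 4274 pseudogenes were called. Pseudogene calls were mostly higher, 270 against 75, and those of long noncoding RNAs nearly even, 178 against 192. Of the 600 microRNA genes on the array 17 were called higher and 39 lower. These probe sets are named by gene, not by mature arm.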

How the data were processed

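RNA of mouse pancreas tumours was hybridised to one-colour arrays, 1 array per mouse, 3 per group in 4 groups. The deposited table holds the authors' processed log2 values for 72688 probe sets, with the scale read from the values (1.64 to 19.93). That range is wider than a scanner's, so differences are given in log2 units and not as folds. The submitters' processing notes name limma, with no version. Background correction, normalization and genome build were not given in the sources used here. Per the labels, labelling used a kit for Illumina arrays, while the probe set names are those of Affymetrix.

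Control probe sets (6732) were left out, and the other 65956 were quantile normalized. Of these, 30604 had 1 gene symbol in the platform annotation, 2146 had several and 33206 had none listed. Symbols were updated through RefSeq for 827, and 1 probe set, that of highest mean, stood for each of 30142 genes. A linear model with 4 group means on 12 arrays was fitted with limma 3.58.1 in R 4.3.3, with Benjamini-Hochberg adjustment over all genes and 0.05 as threshold. On simulated data it recovered 45 of 100 genes shifted by 1 log2 unit and 79 of 100 shifted by 2, with 6 false calls. These counts hold for the simulated data and are not an error rate of the calls made on the tumours. Fits on the values as deposited, on median-centred values and on the other settings of the closing section were alternatives. Named genes were Fap and Acta2, the 12 called genes of largest difference in each direction whose groups did not overlap (predicted, clone and small RNA names left out), up to 12 called in both contrasts, and per list up to 6 called genes or else the 2 of smallest p. Genes of the lists outside this rule were picked after their values were seen. The comparison and the 41 gene lists (481 of 546 entries measured) were chosen with earlier results of these data known. A gene not above background in the FAP-TK controls is given as a bound, the aSMA-TK mean against the higher of the gene's own signal and the background limit of each FAP-TK array.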

Additional observations from a re-analysis of the deposited data

How the results depend on the processing

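The 2350 calls between the controls became 12443 as deposited, 5769 with median centring, 1536 with an offset of 50, 212 on the 6 control arrays alone, 6658 with array weights, 1012 with control-probe separation as a covariate, 5104 at an adjusted p under 0.1 and 63 in an unmoderated two-sample comparison. Without dim genes 0 were left, without the 3 arrays of low separation 357. Among alternatives chosen after seeing the data, 50 were called above the GC-graded background and 0 with negative-control level as a covariate (limma, smallest adjusted p 0.0707, 4967 genes at an unadjusted p under 0.05). Leaving out 1 array gave 508 to 3130. Averaging the probe sets of a gene (2366), trended and robust variances (2993) and sex as a covariate (1877) stayed within 1.5 times. The 1562 calls between depleted tumours became 14287, 3391 and 22 as deposited, with median centring and without dim genes, and 374 to 960 with 1 array left out. Calls on the difference between the contrasts numbered 0 to 1. As deposited Camp was at -0.002 and Bbc3 at -0.22. With the negative-control covariate Clk1 turned to 0.33, Leng8 to 0.28, Morf4l1-ps1 to 0.084, Ccnl2 to 0.22, Cldn7 to -0.025, Mcm2 to -0.21, Pdia6 to -0.59 and Rplp0 to -0.18. The negative-control levels of the lines did not overlap, so the covariate fit cannot tell line and array level apart. The cause of these changes of sign was not tested. No paired analysis was possible because the labels number the mice of each group on their own.

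The 3 arrays per group limit precision, 2 of the 3 FAP-TK controls separate positive from negative controls poorly, and 54.6% of the called genes, beside 51.0% of all genes, were above background on no control array.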

Other observations

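The widest gap of any annotated gene did not pass. D17H6S56E-5, on chromosome 17, was at 6.55, 6.66 and 6.69 in the FAP-TK and 14.64, 14.15 and 14.82 in the aSMA-TK controls, a difference of 7.90 ± 2.36 (SE, n = 3; limma, adjusted p = 0.0681). The spread that sets this error lies in the depleted tumours, at 6.91, 6.07 and 17.41 in the FAP depleted and 17.18, 16.25 and 15.82 in the aSMA depleted group. In the RefSeq order of genes it lies 51 genes from H2-Ea. From H2-Eb1 through H2-Ea to D17H6S56E-5, 43 genes were measured, of which H2-Eb1, Gm15321 and Hspa1a were called higher and Ager lower at -0.74, beside 7.80% called among all genes. Other differences over 4 log2 units that did not pass were those of Clca1, a regulator of goblet cell mucus, at 6.28 ± 2.36, the mucin gene Muc3 at 4.95 ± 1.36, Psca at 4.41 ± 1.47, Sprr2b at 4.32 ± 1.69 and Ly6d at 4.08 ± 1.53. The groups overlapped for Sprr2b and Ly6d, where FAP-TK control 2 was at 15.80 and 16.07. In the depleted tumours Clca1 was at 1.30, Muc3 at -0.87, Psca at -0.08, Sprr2b at -0.26 and Ly6d at 3.13. These genes were picked after their values were seen, for a difference over 4 log2 units.

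Probe sets for 69 genes of 5S ribosomal RNA, with 38 distinct profiles, lay higher in the aSMA-TK than in the FAP-TK controls by a median of 1.87, with 69 of 69 higher, and lower in the aSMA depleted than in the FAP depleted tumours by a median of -4.01, with 0 of 69 higher. Limma called 0 of these genes between controls and 1 between depleted tumours, and the difference between the contrasts was called for 0 (smallest unadjusted p 0.00723, adjusted 0.829). The array medians were 10.13, 10.37 and 14.04 in the FAP-TK and 12.25, 15.96 and 11.86 in the aSMA-TK controls, which overlap.

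Of the called genes, 31 annotated ones passed with each control array left out, were above background in both groups and passed as deposited in the same direction, a selection made after the values were seen. Higher among them, besides genes named above, were Morn2 at 1.56 and Sel1l3 at 1.40. Lower were Tpm3, a tropomyosin like Tpm1, at -1.57, Ypel5 at -1.59, Lacc1, a macrophage metabolic enzyme, at -1.56 and the stress kinase gene Mapk8 at -1.05.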
